A study of Mus musculus with 20 samples.

Results

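Early&Constant regions that pluripotency transcription factors (PTF) already occupied in embryonic stem (ES) cells make up 3282 of the 42403 GATA6 binding regions of the mouse genome (mm10), or 7.74%. They were chosen by 2 classes that the authors deposited. The first is the Early&Constant class, given to regions that GATA6 bound early after its induction and kept binding. The second is the class of PTF binding in undifferentiated cells (d0), drawn from ESRRB, OCT4 and SOX2; the deposited table does not say whether a region needs 1 or all 3 of them. Both classes rest on ChIP signals, whereas the values described here are chromatin accessibility by ATAC-seq, which did not enter the choice. The ChIP values behind the classes were not used here.

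GATA6 was induced with doxycycline in KH2 mouse ES cells, a C57BL/6 x 129/Sv line with a doxycycline-inducible Gata6 cassette, and ATAC-seq followed the cells at d0, 8 h, 16 h, d1, d2 and d4. The cells grew on feeder fibroblasts with serum and LIF. The study's methods describe removal of feeders by adsorption for RNA-seq and ChIP-seq, and their ATAC-seq section does not mention it. X10 XEN cells, wild-type extra-embryonic endoderm cells of CD1 mice that received no treatment and grew without LIF, were the endpoint of comparison, so XEN and the induced cells differ in strain and history as well as in fate. Each group had 3 samples and d4 had 2, from independent cultures by the study's methods, and the sample titles were used for time because the treatment labels give longer exposures (16 h for the 8 h group, 24 h for 16 h, 48 h for d1, 72 h for d2 and 96 h for d4). All groups of the induced line, d0 included, carried the cassette and shared feeders and serum.

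OCT4, SOX2 and ESRRB maintain the undifferentiated state and bind enhancers in ES cells, OCT4 and SOX2 often together on a joined OCT:SOX element. GATA6 is a zinc-finger factor that can bind nucleosomal DNA and drives the primitive endoderm (PrE) fate, the extra-embryonic lineage that lines the yolk sac and from which XEN cells are derived. SOX17 is a PrE factor induced downstream of GATA6, and it can pair with OCT4 on a compressed form of the OCT:SOX element. A region of the kind described here is therefore one that the factors of both states can bind.

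The DNA of 6 of these regions is printed to show how GATA6 and OCT:SOX matches can lie beside each other. In the 2914 regions with both matches, a median of 257 bases parted them. The 6 printed here come from the regions named below and had to hold both matches within 150 bases of the summit of GATA6 binding. All come from RefSeq's GRCm38.p6 assembly (mm10), plus strand, and capitals mark the best-scoring GATA6 and OCT:SOX matches that the authors listed, each with 20 bases of flank. A match on the minus strand reads as its reverse complement, so TTATC stands for GATAA.

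Cop1 region, chr1:159167765-159167844, 12 bases between the matches, GATA6 first: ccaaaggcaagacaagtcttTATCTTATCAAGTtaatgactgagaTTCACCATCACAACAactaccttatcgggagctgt

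Tenm2 region, chr11:37107002-37107090, 21 bases between, GATA6 first: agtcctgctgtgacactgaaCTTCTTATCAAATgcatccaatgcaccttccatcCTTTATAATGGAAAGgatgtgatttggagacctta

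Gata4 region, chr14:63338777-63338839, matches overlapping by 5 bases: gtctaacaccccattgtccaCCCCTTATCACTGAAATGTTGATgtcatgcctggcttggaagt

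Ncoa3 region, chr2:165970430-165970494, matches overlapping by 3 bases: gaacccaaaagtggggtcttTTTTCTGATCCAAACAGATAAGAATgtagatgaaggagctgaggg

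Mad1l1 region, chr5:140158402-140158472, 3 bases between, OCT:SOX first: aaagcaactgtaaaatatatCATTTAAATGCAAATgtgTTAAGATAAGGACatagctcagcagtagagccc

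Cgnl1 region, chr9:71879734-71879868, 67 bases between, OCT:SOX first: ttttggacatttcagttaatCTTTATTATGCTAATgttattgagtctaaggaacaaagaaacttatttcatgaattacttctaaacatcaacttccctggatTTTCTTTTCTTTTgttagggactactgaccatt

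The Cop1 region rose, the Tenm2 region peaked at d2 and the Gata4 region rose in the averages, whereas the Mad1l1 and Cgnl1 regions fell and the Ncoa3 region, a wide one that the authors classed as moderate, had one of the 4 highest summed RPM at d0. In the Mad1l1 region the OCT:SOX match holds a whole octamer, ATGCAAAT. In the Cgnl1 region the GATA6 match holds no GATAA on either strand, and its score, 8.72, is the lowest of the 6. The OCT:SOX scores were 6.55 (Cop1), 8.585 (Gata4), 8.97 (Ncoa3), 12.2 (Tenm2), 14.4 (Mad1l1) and 16.3 (Cgnl1). The median best OCT:SOX score of the set was 9.42.

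Accessibility is given in RPM, the reads in a region scaled to the size of the library, and each deposited column is the average of a group. Single libraries could be read back out of those averages for 24753 of the 42403 regions and 1898 of the 3282 described here, with 3 libraries at 8 h, 16 h, d1 and d2 and 2 at d4 and in XEN, and with none at d0. They are named A, B and C by size, a name that ties nothing across groups, and tests therefore start from 8 h. Library sizes were 181 to 288 M reads, apart from XEN library A with 43.3 M, in which 8.33% of these regions held 3 reads or fewer. The libraries also differed in how much of their signal fell in GATA6 regions: summed over the regions with single-library values it was 2794 to 5141 RPM at 8 h and 6847 to 9757 RPM at d2. The median GATA6 region was accordingly 0.69 higher at d2 than at d0, 0.52 higher at d4 and 0.40 higher in XEN on the log2 scale, and changes are also given relative to it. All log2 values are of RPM plus 0.03, which understates the change of weak regions. In bulk ATAC-seq, more open cells and more opening per cell cannot be told apart.

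In the deposited averages, the median accessibility of Early&Constant regions bound by PTF was highest at d2 and lower again at d4 and in XEN. Their median was 0.305 RPM at d0, 0.293 at 8 h, 0.372 at 16 h, 0.477 at d1, 0.730 at d2, 0.428 at d4 and 0.248 in XEN. Most of them, 2504 or 76.3%, had their highest average at d2, as did 39.4% of all regions. The median region was 1.10 higher at d2 than at d0 on the log2 scale and 0.45 higher at d4, and it lay 0.20 below d0 in XEN. Relative to the median GATA6 region these changes came to 0.41 at d2, -0.07 at d4 and -0.60 in XEN. The share of the summed RPM of all regions that these 7.74% of regions held went from 20.4% at d0 to 22.0% at d2, 18.1% at d4 and 14.5% in XEN. The peak at d2 depended on the scaling: under quantile normalisation the median change from d0 was smaller at d2 than at d1.

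The single libraries set the error of this course. At 8 h the median of the 1898 regions was 0.223, 0.423 and 0.293 RPM in libraries A to C. At 16 h it was 0.266, 0.359 and 0.559 RPM, and at d1 0.442, 0.697 and 0.386 RPM. The 3 earliest induced groups thus overlapped. At d2 the libraries read 0.792, 0.884 and 0.638 RPM, all above every earlier library at 8 h and 16 h, although d1 library B exceeded d2 library C. At d4 they read 0.449 and 0.442 RPM, above the 8 h libraries and under those of d2. The XEN libraries read 0.254 and 0.246 RPM, inside the range of 8 h. The spread of the median change over libraries was correspondingly large at 16 h and d1 (SD 0.47 and 0.40 on the log2 scale, n = 3) and small at d4 (SD 0.02, n = 2). These changes all start from the same d0 average, whose own error the SD leaves out.

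**Figure D1:**
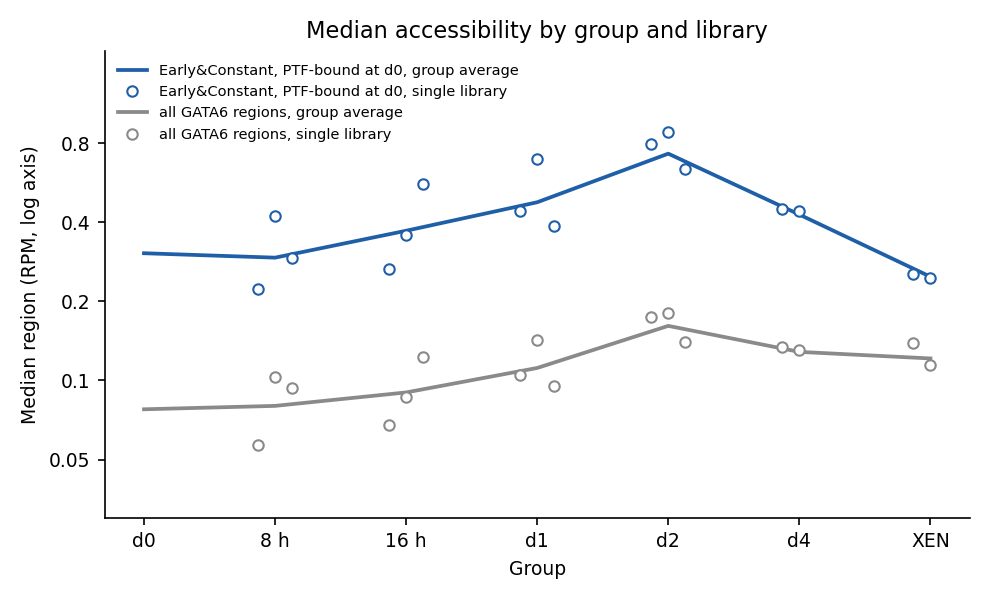
Median accessibility in RPM (log axis) by group, for the Early&Constant regions bound by PTF at d0 (blue) and all GATA6 regions (grey); lines join the medians of the deposited averages and open circles are single libraries, none for d0. The blue line peaks at d2 at 0.730 RPM and ends in XEN at 0.248 RPM, and the circles of 8 h, 16 h and d1 overlap.

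Each region was tested with limma on the 16 single libraries, p-values were adjusted over all 24753 regions by Benjamini-Hochberg, and a region was called when its adjusted p was under 0.05 and its change exceeded 1 on the log2 scale. Between 8 h and 16 h, 0 of the 1898 regions were called in either direction, where the background over all regions tested was 0.00404% higher and 0.00404% lower. At an unadjusted p under 0.05, 178 of them differed, 173 of these higher at 16 h. At d1, 219 regions (11.5%) rose against 8 h and 0 fell, against a background of 5.45% and 0.0162%. Of the 722 that differed at d1 at an unadjusted p under 0.05, 721 were higher. The count at d1 went to 23 without d1 library B, 25 without 8 h library A, 103 without d1 library A, 115 without 8 h library C and 455 without 8 h library B, so it rests on single libraries.

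At d2, 1097 regions (57.8%) rose against 8 h and 5 fell, against a background of 36.9% and 1.15%. The rise stood out from the spread between libraries under every omission of a library (911 to 1316 called higher). It depended on the scaling, however. With each library centred on its own median over all regions, 392 rose and 66 fell, so that 85.6% of the calls were higher rather than 99.5%, and with quantile normalisation 206 rose and 111 fell (65.0% higher). The median change at d2 against 8 h was 1.15 as deposited, 0.36 after centring and 0.05 after quantile normalisation. Over all regions tested the median change at d2 was 0.67 as deposited, so part of the rise was common to GATA6 regions.

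At d4, 507 regions (26.7%) rose and 89 (4.69%) fell against 8 h, against a background of 30.5% and 6.59%. In all 507 every d4 library lay above every 8 h library, and in all 89 below. Which direction held more calls changed with the scaling: after centring 212 rose and 248 fell (46.1% of calls higher, from 85.1%), and after quantile normalisation 152 rose and 309 fell (33.0%). Without d4 library A, 324 regions rose and 59 fell, without d4 library B 56 fell, and without 8 h library B 54 fell.

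Between d2 and d4, 330 regions (17.4%) fell and 0 rose, against a background of 8.73% and 2.0%. At an unadjusted p under 0.05, 764 differed between d2 and d4, of which 1 was higher. The direction was kept under both other scalings, with 187 lower and 1 higher after centring and 95 lower and 1 higher after quantile normalisation. The number was less certain: it was 145 without d2 library A, 108 without d2 library B, 40 without d4 library A and 30 without d4 library B, where the lone d4 library was taken to vary as the other groups do.

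From d4 to XEN, 481 regions (25.3%) were lower and 14 (0.74%) higher, against a background of 12% and 5.55%. Centring gave 540 lower and 23 higher, and quantile normalisation 311 and 77. Of the calls, 2.83% were higher as deposited, 4.09% after centring and 19.9% after quantile normalisation. Leaving out a library of either group left 164 to 282 lower: 164 without d4 library A, 191 without d4 library B, 199 without XEN library A and 282 without XEN library B. The higher count was 2 without d4 library A or XEN library A and 5 without d4 library B.

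The averages of all 3282 regions, which carry no spread, were set against d0. At d1, 329 regions were more than 2-fold higher (10.02%), against 4.55% of all regions. At d2 the count was 1801 higher (54.9%) and 6 lower, against 36.8% and 1.41%. At d4 it was 808 higher (24.6%) and 170 lower (5.18%), against 31.0% and 7.27%, a balance that turned to 305 higher and 526 lower after centring and 216 and 584 after quantile normalisation. In XEN 309 were higher (9.42%) and 604 lower (18.4%), against 27.7% and 8.83%.

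**Figure D2:**
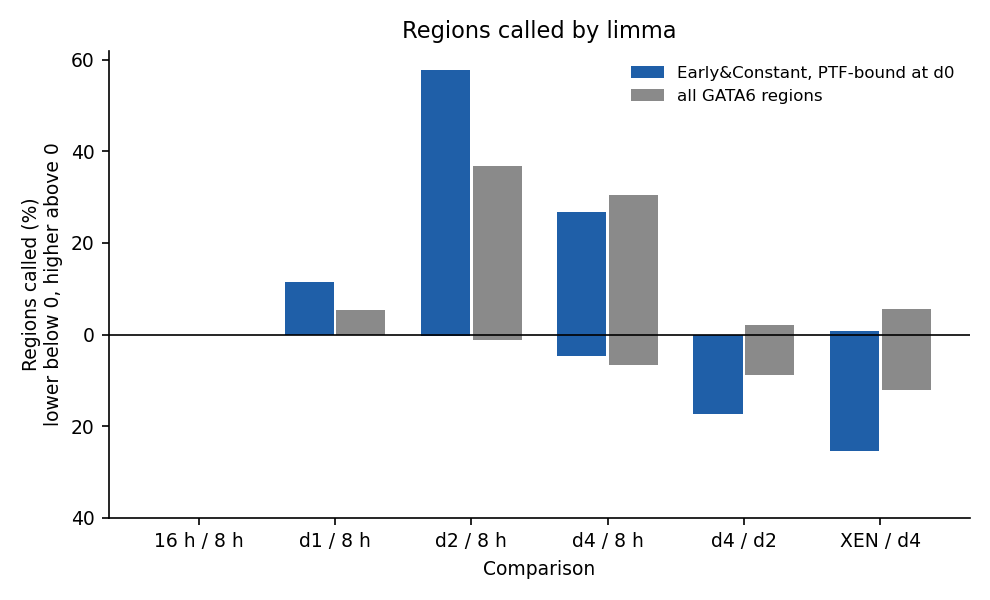
Percentage of regions called by limma in each of 6 comparisons, higher above 0 and lower below 0, for the 1898 Early&Constant regions bound by PTF at d0 (blue) and all 24753 regions tested (grey). Blue exceeds grey for the rise at d2 (57.8% and 36.9%) and for the falls at d4 against d2 (17.4% and 8.73%) and in XEN against d4 (25.3% and 12%).

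Set beside the regions most like them, these regions had a median change at d2 between those of the Transient and ectopic sets, as medians without a test. Transient regions bound by PTF at d0 (5309), which GATA6 bound early and then left, had a median of 0.220 RPM at d0, 0.178 at d2 and 0.0903 at d4, a change at d4 of -0.89 on the log2 scale where Early&Constant regions bound by PTF stood at 0.45. Early&Constant regions with ectopic PTF binding (4314), which PTF joined only after induction, began at 0.107 RPM, reached 0.507 at d2 (a change of 1.803) and kept 1.41 at d4 and 0.72 in XEN. Both Early&Constant sets had their highest average at d2 in similar shares, 76.3% and 76.5%, against 23.6% of the Transient set. Early&Constant regions without PTF binding (4279) changed by 1.01 at d2, 0.78 at d4 and 0.59 in XEN. In XEN the regions bound by PTF at d0 stood at -0.20 (Early&Constant), -0.89 (Transient) and 0.15 (the 250 Late regions). For the limma calls, 0 of 1898 Early&Constant regions bound by PTF rose from d2 to d4, compared with 3 of 2489 with ectopic PTF, 16 of 2463 without PTF, 0 of 3103 Transient and 1 of 165 Late regions bound by PTF, against 2.0% of all regions.

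Widths need care in reading these levels. Regions of the set described here had a median width of 1060 bases, compared with 669 for Transient regions bound by PTF, 806 for the ectopic set, 536 for the set without PTF and 524 over all regions. Per kilobase, the d0 median was 0.277 RPM, under the 0.323 of the Transient set and above the 0.130 of the ectopic set. At d2 it was 0.670 RPM per kilobase, where the ectopic set reached 0.615 and the Transient set 0.259. In XEN it was 0.226 RPM per kilobase, where the ectopic set kept 0.271 and all regions 0.229.

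SOX17 binding separated the Early&Constant regions bound by PTF most clearly at d2 and d4. The authors' SOX17 class held 2901 of the 3282 regions (88.4%), against 86.4% of the ectopic set, 25.4% of the Transient set bound by PTF and 44.5% of all regions. Regions with SOX17 rose from a median of 0.325 RPM at d0 to 0.816 at d2 and stood at 0.482 at d4 and 0.271 in XEN. The 381 regions without SOX17 went from 0.193 RPM to 0.251 at d2, 0.138 at d4 and 0.133 in XEN. The median change from d0 was thus 1.19 against 0.36 at d2, 0.55 against -0.28 at d4, and -0.17 against -0.33 in XEN.

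The gap between both SOX17 classes exceeded its spread over libraries. Every library was set against the same d0 average, so this spread leaves out the error of d0. In the single libraries it was 0.81, 0.96 and 0.67 at d2 (0.83 in the averages, SD 0.15, n = 3). It was 0.77 and 0.78 at d4 and 0.13 and 0.22 in XEN. At d4, limma called 501 of 1686 regions with SOX17 higher (29.7%) and 59 lower, and 6 of 212 regions without SOX17 higher (2.83%) and 30 lower (14.2%). Over all regions tested these shares were 30.5% and 6.59%, so the share of regions with SOX17 called higher was near the background. The gap at d4 held within each class of d0 accessibility, at 1.02 in closed, 0.86 in moderate and 1.19 in accessible regions. The last rests on 34 accessible regions without SOX17.

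Accessibility at d0 ordered the regions in reverse, a comparison that is not independent of the change since both use the d0 value. The authors classed 1140 of the regions as closed at d0 (34.7%), 1753 as moderate (53.4%) and 389 as accessible (11.9%). Over all regions the shares were 61.3%, 31.2% and 7.43%. At d0 the classes had medians of 0.162, 0.361 and 0.727 RPM, and single regions of the closed class reached 1.17 RPM, so the classes overlap in RPM. Closed regions changed by 1.52 at d2, 0.86 at d4 and 0.34 in XEN. Accessible regions changed by 0.78, -0.03 and -0.91. The test against 8 h, which does not use d0 values, called 274 of 635 closed regions higher at d4 (43.1%) and 2 lower (0.315%), and 12 of 247 accessible regions higher (4.86%) and 40 lower (16.2%), against 30.5% and 6.59% of all regions. From d4 to XEN, 77 of the 247 accessible regions were lower (31.2%) and 0 higher, against 12% and 5.55%.

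The authors also classed each region by how GATA6 binding changed on Oct4 knockdown at d2. GATA6 binding decreased at 627 of the regions (19.1%, against 6.25% of all regions) and increased at 159 (4.85%, against 8.58%). The unchanged class held 2496 regions (76.05%, against 85.2%), those that did not pass the authors' thresholds for a change. The median changes of the decreased, unchanged and increased classes were 0.31, 0.20 and 0.05 at 16 h, 0.63, 0.53 and 0.37 at d1, and 1.10, 1.10 and 0.95 at d2. At d4 and in XEN their order was the opposite. Regions where GATA6 binding decreased stood at 0.08 at d4 and -0.58 in XEN. The unchanged class stood at 0.51 and -0.15, and regions where GATA6 binding increased at 0.88 and 0.52.

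The separation at d4 and in XEN was larger than the spread of the libraries, which again leaves out the error of the shared d0 average. The gap between the decreased and unchanged classes was -0.45 and -0.43 in the d4 libraries and -0.50 and -0.54 in XEN, whereas at d2 it was -0.06, -0.04 and 0.03. The gap between the increased and unchanged classes was -0.17, -0.10 and -0.25 at d2, 0.35 and 0.37 at d4 and 0.81 and 0.78 in XEN. From d2 to d4, limma called 174 of 362 regions lower where GATA6 binding decreased (48.1%), against 8.73% of all regions. It called 156 of 1447 lower in the unchanged class (10.8%) and 0 of 89 where GATA6 binding increased. The classes come from a separate knockdown experiment, and the accessibility from the induction course without knockdown.

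**Figure D3:**
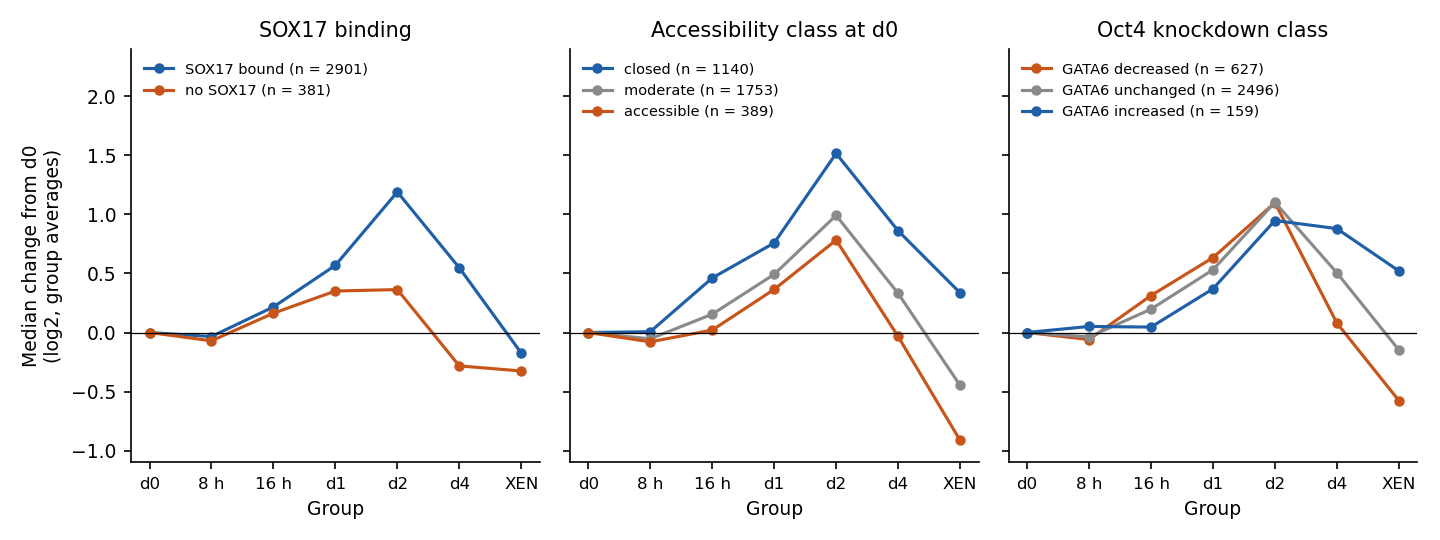
Median change in accessibility from d0 (log2, group averages) for the 3282 Early&Constant regions bound by PTF at d0, split by SOX17 binding (left), class of d0 accessibility (middle) and change of GATA6 binding on Oct4 knockdown (right). Regions with and without SOX17 part at d2 (1.19 and 0.36), whereas the decreased, unchanged and increased Oct4 knockdown classes stand at 1.10, 1.10 and 0.95 at d2 and at 0.08, 0.51 and 0.88 at d4.

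The histone classes, which the authors took from marks in ES cells, put 907 regions (27.6%, against 11.2% of all regions) among active enhancers, 875 among primed enhancers, 494 in naive chromatin, 275 among poised enhancers, 262 at promoters, 248 in facultative heterochromatin and 221 in constitutive heterochromatin. Active enhancers had a median of 0.540 RPM at d0, changed by 0.91 at d2 and ended at -0.68 in XEN. Regions in facultative heterochromatin began at 0.192 RPM, changed by 1.72 at d2 and 1.03 at d4, and ended at 0.48. Naive regions followed the same course with 1.44, 0.80 and 0.32. Poised enhancers changed by 1.30 at d2 and stood at -0.06 in XEN. Facultative heterochromatin held 22.4% of all regions and 7.56% of these. In XEN the change from d0 was lowest in active enhancers, whereas the level was lowest in constitutive heterochromatin (0.126 RPM, against 0.311 in active enhancers).

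Single regions show the size of the changes behind these medians. A ranking by the change from 8 h is not independent of the level before it. The 6 largest rises from 8 h to d4 were all closed at d0 and all bound by SOX17, where 34.7% and 88.4% of the set were. The largest was intergenic and nearest to Tnfaip3, which encodes a ubiquitin-editing inhibitor of NF-κB signalling (chr10:19156978-19158595). It measured 0.104, 0.183 and 0.267 RPM at 8 h, 1.496, 1.59 and 0.922 at d2 and 1.41 and 1.65 at d4. Each d2 library was above each 8 h library, and the change at d4 was 2.93 ± 0.40 (SE, limma adjusted p = 1.17e-11).

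The next largest rises were near Gm10160, Ap1s3, Slc5a11, Cop1 and Oat. The region near Gm10160 (chr7:81845958-81847052) went from 0.0855, 0.235 and 0.178 RPM at 8 h to 1.33 and 1.26 at d4. The Cop1 region (chr1:159167382-159168349), printed above, is intergenic and nearest to Cop1, which encodes a ubiquitin ligase. It went from 0.0665, 0.122 and 0.145 RPM at 8 h to 1.19, 1.41 and 1.04 at d2 and 0.935 and 0.759 at d4 (change at d4 2.67 ± 0.40, SE, limma adjusted p = 5.49e-10). The region assigned to Oat lay in an intron of Fgfr2, a receptor for FGF (chr7:132558890-132559852). It read 0.128, 0.235 and 0.258 RPM at 8 h, 1.39 and 1.39 at d4 and 0.531 and 0.531 in XEN, a fall from d4 to XEN of -1.34 ± 0.44 (SE, limma adjusted p = 0.0174). The region in an intron of Wdfy1 that is assigned to Ap1s3 (chr1:79711641-79713536) reached 2.51, 2.93 and 1.95 RPM at d2 from 0.128, 0.339 and 0.211 at 8 h. The intronic Slc5a11 region (chr7:123243903-123245633), in the gene of a sodium-coupled inositol transporter, reached 3.55, 4.38 and 3.31 RPM at d2 from 0.275, 0.498 and 0.478. The 6 were chosen for d4 libraries above every 8 h library, so that order and the size of the change are a description. In the regions of Ap1s3 and Oat the fall to XEN passed the test. That comparison uses the same d4 libraries, so its p-values are a description too.

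Of the 6 largest falls, 3 were without SOX17 and 0 were closed at d0, where 11.6% and 34.7% of the set were. They were chosen for d4 libraries below every 8 h library, so that order and the size of the fall are a description. The largest fall, nearest to Rbmxl2 (chr7:107236691-107237587), was from 0.423, 0.677 and 0.413 RPM at 8 h to 0.0909 and 0.0653 at d4, and XEN measured 0.0923 and 0.0208. Its change at d4 against 8 h was -2.28 ± 0.39 (SE, limma adjusted p = 8.69e-08), and most of it came after d2, where the libraries still read 0.305, 0.395 and 0.507. The intronic Mad1l1 region (chr5:140157547-140158967), in the gene of a spindle checkpoint protein, held 0.584, 1.17 and 0.717 RPM at 8 h, 0.649, 0.705 and 0.699 at d2 and 0.198 and 0.126 at d4. The d2 libraries overlapped those of 8 h, and the change from d2 to d4 was -1.92 ± 0.40 (SE, limma adjusted p = 0.000286). That change uses the d4 libraries for which the region was chosen, so its p-value is a description too.

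The region in an intron of Tcf12 that is assigned to Cgnl1 (chr9:71879420-71880269) fell from 0.214, 0.329 and 0.300 RPM at 8 h to 0.0321 and 0.0553 at d4. The other falls were the regions near 5730522E02Rik (chr11:25473442-25474445), in Hnrnpr (chr4:136317474-136318560), an RNA-binding protein, and in Kcnt2 (chr1:140428928-140429775), a potassium channel. Those of 5730522E02Rik and Hnrnpr were already lower than 8 h at d2, by limma changes of -1.51 and -1.05. The d4 libraries of 5730522E02Rik, at 0.0374 and 0.0151 RPM, were at a few reads.

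The 4 regions with the highest d0 average were nearest to Rhof, Hs6st1, Ncoa3 and Tbx3. The Rhof region, 2.4 kb from the start of that small GTPase (chr5:123134464-123138762), measured 4.38 RPM at d0 and 6.96, 8.72 and 6.07 RPM at d2, and 2.36 and 2.84 in XEN. Its changes did not pass the test (d2 against 8 h 0.67 ± 0.36, SE, limma adjusted p = 0.114). The region nearest to Tbx3, a T-box factor expressed in naive ES cells, was 4404 bases wide (chr5:119585655-119590059) and went from 2.03 RPM at d0 to 5.65, 6.81 and 4.40 in the d2 libraries. It rose at d2 against 8 h by 1.49 ± 0.36 (SE, limma adjusted p = 0.00016) and fell by 1.35 from d4 to XEN (limma adjusted p = 0.0195). The Ncoa3 region (chr2:165967707-165971150), near a nuclear receptor coactivator, averaged 2.04 RPM at d0, 4.48 at d2 and 1.28 in XEN. The Hs6st1 region (chr1:36059879-36062630) averaged 2.06 RPM at d0, 2.36 at d2 and 1.26 in XEN.

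The sharpest peaks at d2, those with the largest excess over both d0 and d4, were near Nrsn1, Tenm2, Mef2c and Vstm2b. These were chosen for that shape, so the values are a description. The Tenm2 region (chr11:37106748-37107500), in an intron of that teneurin gene, measured 0.057, 0.103 and 0.075 RPM at 8 h, 0.629, 0.676 and 0.529 at d2, 0.128 and 0.196 at d4, and 0.0923 and 0.052 in XEN. The Mef2c region (chr13:83267200-83268062), 236 kb from the start of a MADS-box factor, measured 0.683, 0.629 and 0.511 RPM at d2 and 0.144 and 0.131 at d4. The Nrsn1 region (chr13:25639759-25640424) averaged 0.182 RPM at d0, 0.701 at d2 and 0.186 at d4, and the Vstm2b region (chr7:40362606-40363118) 0.213, 0.857 and 0.25. GATA6 binding decreased on Oct4 knockdown at 3 of these 4 regions, all but that of Mef2c, and at 19.1% of the set. The choice of these 4 is not independent of that class, of which 48.1% was called lower from d2 to d4.

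Lists of PrE and pluripotency genes were then set against the nearest genes of the regions. In all, 47 listed genes were nearest to at least 1 region, out of 2410 nearest genes, and the region with the highest d2 average stands for each. Among PrE transcription factors, 3 of 11 genes (Gata4, Foxa2 and Sall4) had 6 regions, with no single-library values. The Gata4 region (chr14:63338108-63339256), 67.1 kb from the start of that PrE GATA factor, averaged 0.51 RPM at d0, 0.842 at 16 h, 2.58 at d2, 1.73 at d4 and 1.44 in XEN. The Sall4 region averaged 1.29 RPM at d0, 2.89 at d2 and 0.985 in XEN. The Foxa2 region stayed between 0.0572 and 0.111 RPM in all 7 averages.

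Among PrE receptors and signalling genes, 9 of 11 had 14 regions, and of the 6 tested, 6 rose at d2 and 4 at d4 against 8 h, while 1 fell from d4 to XEN, where 36.9%, 30.5% and 12% of all regions did. In the set described here 57.8%, 26.7% and 25.3% did. The Pdgfra region (chr5:75142815-75145699), 8.5 kb from a receptor tyrosine kinase that marks PrE, measured 0.465, 0.78 and 0.506 RPM at 8 h, 3.18, 3.55 and 2.17 at d2, 2.20 and 2.19 at d4 and 1.71 and 1.49 in XEN. It rose at d4 by 1.89 ± 0.40 (SE, limma adjusted p = 2.15e-05) and its XEN libraries stayed above those of 8 h. The Kit region (chr5:75366659-75368512), near the gene of another receptor tyrosine kinase, rose at d4 by 2.48 ± 0.40 (SE, limma adjusted p = 1.21e-08). The Kdr region, near a VEGF receptor gene, averaged 0.169 RPM at d0, 1.35 at d2, 1.47 at d4 and 1.34 in XEN.

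Not all of these held their level in XEN. The intronic Fgfr2 region (chr7:133040805-133042165) fell by 1.24 from d4 to XEN (limma adjusted p = 0.0304). The regions of Lrp2 and Cubn, endocytic receptors of the visceral endoderm, averaged 1.39 and 1.68 RPM at d2 and 0.202 and 0.747 RPM in XEN. The Dab2 region, near the gene of an adaptor of those receptors, averaged 1.14 RPM at d2 and 0.149 in XEN, and the Rhox5 region 1.16 and 0.153. The Cited1 region averaged 0.435 RPM at d0, 1.16 at d2 and 0.907 in XEN.

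Among basement membrane and secreted PrE proteins, 6 of 14 genes had 14 regions, and of the 11 tested, 9 rose at d2, 6 rose at d4 and 3 fell from d4 to XEN, where 36.9%, 30.5% and 12% of all regions did. In the set described here 57.8%, 26.7% and 25.3% did, so the fall to XEN was near the share of the set. The regions of Col4a1 and Col4a2, which encode chains of type IV collagen, moved most. The Col4a2 region (chr8:11308478-11310403), inside Col4a1, measured 0.456, 0.874 and 0.741 RPM at 8 h, 4.35, 5.65 and 3.35 at d2, 3.52 and 3.11 at d4 and 0.277 and 0.513 in XEN. The Col4a1 region (chr8:11317082-11318048), inside Col4a2, measured 1.30 and 1.49 RPM at d4 and 0.139 and 0.128 in XEN. Their falls from d4 to XEN were -3.03 ± 0.44 and -3.13 ± 0.44 (SE, limma adjusted p = 5.49e-09 and 9.36e-10), back to or under the 8 h libraries. The Lama1 region, near a laminin chain gene, averaged 0.713 RPM at d0, 1.77 at d2 and 0.927 in XEN, and the Lamc1 region, with another chain, measured 2.95, 3.49 and 2.55 RPM at d2 and 1.45 and 1.33 in XEN. The Nid1 region, in the gene of the linker protein nidogen, rose at d2 by 1.02 ± 0.36 (SE, limma adjusted p = 0.0101), and the Fst region, near the activin antagonist follistatin, averaged 0.132 RPM at d0 and 0.251 at d2.

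Among pluripotency transcription factors and their partners, 16 of 23 genes had 39 regions. Of the 23 tested, 9 rose at d2 against 8 h and 0 fell. The rise was 39.1%, near the 36.9% of all regions and under the 57.8% of the set. At d4, 1 was higher and 2 were lower than at 8 h, 7 fell from d2 to d4 and 6 fell from d4 to XEN, with 0 rising in those last comparisons. The falls were 30.4% and 26.1% of those tested, against 8.73% and 12% of all regions. In the set described here 17.4% and 25.3% fell, so the fall to XEN was near the share of the set. The Pou5f1 region (chr17:35502077-35503182), 3.1 kb from the start of the gene for OCT4, averaged 0.432 RPM at d0, 1.14 at d2, 0.477 at d4 and 0.284 in XEN. The Sox2 region (chr3:34744837-34745769) averaged 0.604 RPM at d0, 0.903 at d2, 0.478 at d4 and 0.0705 in XEN. Both regions had their highest average at d2, as did 76.3% of the set. Each stands for its gene because its d2 average was the highest among that gene's regions, so the peak is a description.

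Among genes of FGF, Nodal, BMP, LIF and Wnt signalling, 13 of 23 had 22 regions. Of the 8 tested, 3 rose at d2, 1 rose and 0 fell at d4, 1 fell from d2 to d4 and 1 fell from d4 to XEN, where 36.9%, 30.5%, 6.59%, 8.73% and 12% of all regions did, so the rise at d2 and the fall to XEN were near the background. In the set described here 57.8%, 26.7%, 4.69%, 17.4% and 25.3% did. Over the 5 lists the median change at d2 was 0.91 for signalling, 0.98 for pluripotency factors, 1.21 for PrE transcription factors, 1.30 for basement membrane and 1.70 for PrE receptors, beside 1.10 for all 3282 regions. At d4 it was -0.03, 0.16, 0.52, 0.79 and 0.95 in the same order, beside 0.45.

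**Figure D4:**
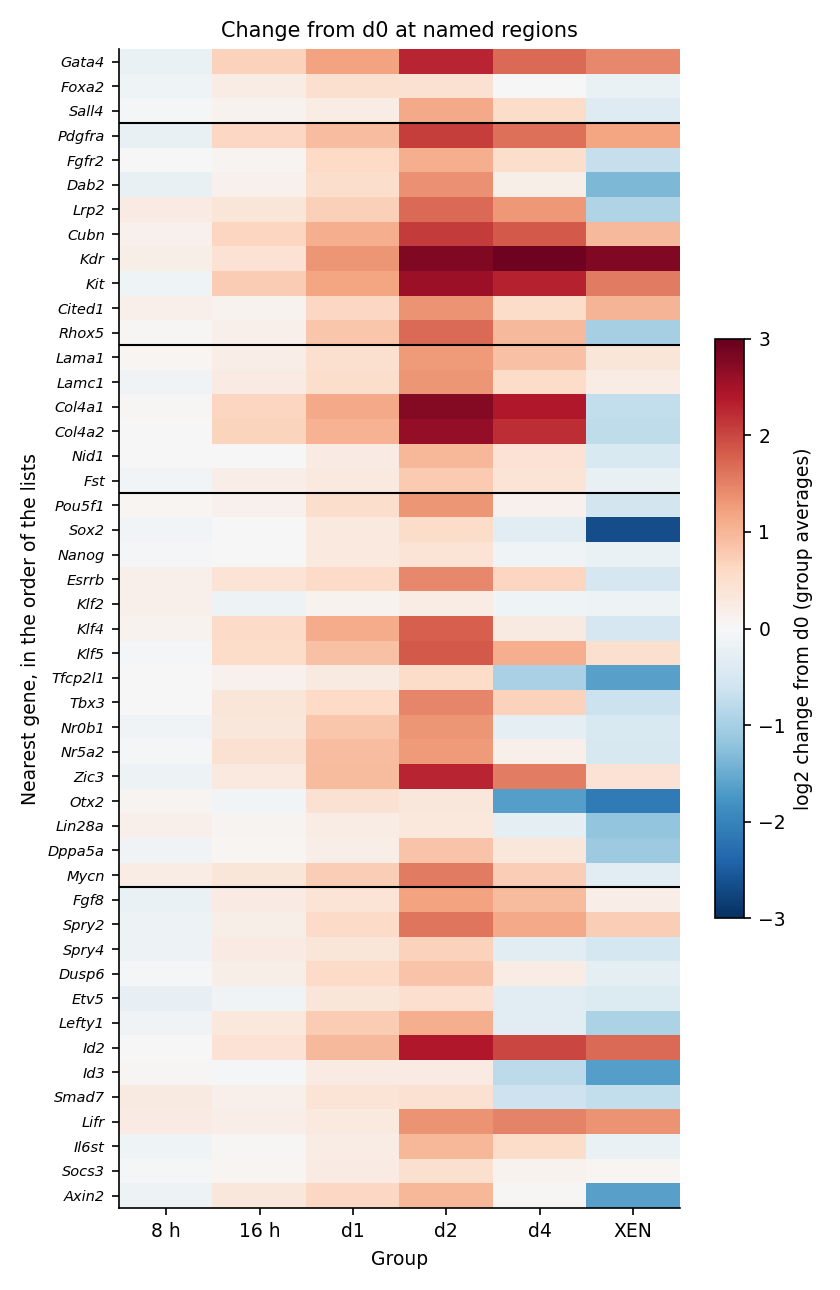
Change from d0 (log2, group averages, colour from -3 to 3) at the region with the highest d2 average for each of 47 listed genes, rows in the order of 5 gene lists parted by black lines and columns by group. Rows are red at d2 in every list, and in XEN the Gata4, Pdgfra and Kdr rows stay red whereas the Sox2 row is blue (0.604 RPM at d0, 0.0705 RPM in XEN).

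By place, 52.2% of the regions were intergenic, 42.6% were in introns, 3.69% within 1 kb of a start site of a protein-coding gene, 0.975% in untranslated regions and 0.518% in coding exons, and the median lay 30.7 kb from the nearest start site. Over all GATA6 regions the share within 1 kb of a start was 5.38% and the median distance 31.1 kb.

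A larger share of these regions than of all GATA6 regions, which are narrower, held at least 1 match for each of 4 motifs. The authors listed a GATA6 match in 95.2% of the regions (89.7% of all), an OCT:SOX match in 92.9% (71.5%), a SOX17 match in 89.0% (69.2%) and an ESRRB match in 58.8% (36.3%). Per kilobase this did not hold for every motif. The regions had fewer GATA6 matches (3.49, against 4.05 over all regions) and SOX17 matches (2.19 against 2.22), and more OCT:SOX matches (2.81 against 2.64) and ESRRB matches (0.838 against 0.798).

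The best OCT:SOX match of these regions was mostly away from the GATA6 summit. It lay within 100 bases of the summit in 32.1% of regions with a match, compared with 60.1% in Transient regions bound by PTF and 26.9% in the ectopic set. The best GATA6 match lay within 100 bases in 54.4%, 50.8% and 66.3% of them. In the 2914 regions with both, a median of 257 bases parted the matches, 157 had 0 to 20 bases between them as in the Cop1 and Mad1l1 regions, and 69 overlapped as in the Gata4 and Ncoa3 regions. These matches come from the whole of each region, and wider regions leave more room for distant matches.

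**Figure D5:**
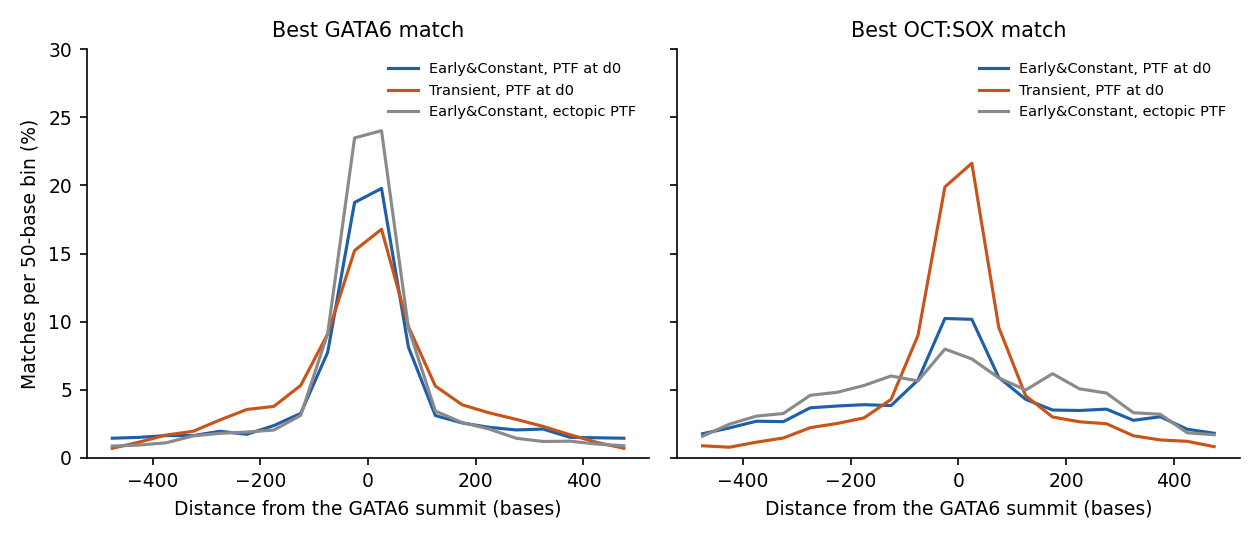
Position of the best GATA6 match (left) and OCT:SOX match (right) around the GATA6 summit, as the percentage of regions with a match in bins of 50 bases, for Early&Constant regions bound by PTF, Transient regions bound by PTF and Early&Constant regions with ectopic PTF. The 2 central OCT:SOX bins hold 10.2% and 10.2% of the matches in the first set, and 19.9% and 21.6% in the Transient set.

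Exact letters were also searched on both strands in windows of 301 bases centred on the summit, equal for all regions. The GATA letters AGATAA were in 61.3% of the windows (58.1% of all regions), the SOX letters ATTGT in 65.3% (55.4%), the octamer ATGCAAAT in 5.94% (3.73%) and the ESRRB letters CAAGGTCA in 5.97% (3.98%). The canonical OCT:SOX letters TTGTNATGC were in 3.50%, against 7.06% of Transient windows bound by PTF, 0.765% of ectopic windows and 1.81% of all. The compressed form TTGTATGC, which lacks the spacing base, was in 1.58%, against 0.923%, 2.23% and 1.03%. The octamer can share its first letters with the end of either OCT:SOX form, so these searches overlap. Regions bound by PTF at d0 and kept by GATA6 lay between the Transient and ectopic sets for both forms.

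Regions with each form differed in their course, as medians without a test. The 115 with the canonical letters had a median of 0.257 RPM at d0, 0.430 at d2, 0.222 at d4 and 0.123 in XEN, changes of 0.68, 0.04 and -0.71. The 52 with the compressed letters had 0.235, 0.819, 0.522 and 0.211 RPM, changes of 1.63, 0.81 and -0.01. By the score of the authors' OCT:SOX matches, regions in the top tercile changed by 0.91 at d2 and 0.20 at d4 and those in the bottom tercile by 1.21 and 0.55.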

How the data were processed

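ATAC-seq was analysed in 20 samples of 7 groups. Per the methods and the submitters' processing notes, the authors demultiplexed reads with bcl2fastq, trimmed them with cutadapt, aligned them with Bowtie2 to mm10, filtered them with SAMtools and counted fragments shorter than 100 bp. The authors deposited RPM per region, averaged over the replicates of each group, with score columns for FIMO motif matches and their own class columns. ChIP and other assay columns (52) were not used. The members, gene lists and alternatives were chosen with earlier results of these data known.

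Whole reads of single libraries were recovered where the 7 values of a region carried more than 12 significant digits (24753 regions), by searching the 2500 lowest values of a column for library sizes that made the average whole reads, to a tolerance of 1e-07 reads and for at least 95% of regions. In the solved columns 100% of values came out whole. No solution was found for d0, and XEN resolved to 2 libraries against 3 labelled samples. The recovered libraries carry no replicate number. Each held an added read per region. No count test was run on these reads.

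limma 3.58.1 in R 4.3.3 was run on log2(RPM + 0.03) with a variance trend over the 16 libraries and all groups, after testing on simulated data, with Benjamini-Hochberg adjustment over 24753 regions. Python 3.11.15 with numpy 2.4.6, pandas 2.3.3 and pysam 0.24.0 served for the rest. The depth per library limits precision at weak regions, and intervals of counting error were not computed since p-values rest on libraries. Named regions were the 6 largest called rises and falls from 8 h to d4 with libraries that do not overlap, the 4 highest at d0, the 4 largest d2 excesses with at least 0.5 RPM, and, for listed genes, the region with the highest d2 average, given with values for the first 20 in list order. Nearest genes were the protein-coding genes (21951) of a GENCODE annotation of mm10. Region coordinates are as deposited. Alternatives were another pseudocount, centring, quantile normalisation, a filter on low values, subtraction of the added read, no variance trend, fits on the groups compared alone and omission of each library.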

Additional observations from a re-analysis of the deposited data

How the results depend on the processing

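No paired analysis was possible because the deposited columns are group averages and the libraries read back from them carry no replicate number. Of 295 values recomputed under an alternative, 174 stayed within the margin set for their kind (1.5 times for counts, 1 SD over libraries for medians), 119 moved beyond it and 2 changed sign. The cause of a move was not tested unless the setting itself gives it.

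After centring libraries on their median, the calls against 8 h were 8 higher and 1 lower at 16 h, 58 and 1 at d1, 392 and 66 at d2, and 212 and 248 at d4; they were 1 higher and 187 lower from d2 to d4, and 23 regions were higher in XEN than at d4. After quantile normalisation the calls were 7 higher and 3 lower at 16 h, 36 and 1 at d1, 206 and 111 at d2, 152 and 309 at d4, 1 and 95 from d2 to d4, and 77 and 311 from d4 to XEN. In the averages, centring left 18 regions past 2-fold higher at d1, 546 higher and 156 lower at d2, 305 and 526 at d4, and 101 and 1171 in XEN. Quantile normalisation gave 11 at d1, 296 and 226 at d2, 216 and 584 at d4, and 1006 lower in XEN. The median change from d0 under quantile normalisation was 0.10 at d1, 0.017 at d2, -0.21 at d4 and -0.54 in XEN. After centring it was 0.27 at d2, -0.11 at d4 and -0.69 in XEN, so that the sign at d4 changed under both. Under quantile normalisation the change at d2 was also smaller than at d1, so the peak at d2 was not kept.

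With a pseudocount of 0.15 RPM the calls were 58 higher at d1, 0 lower at d2, 301 higher and 45 lower at d4, 194 lower from d2 to d4, and 3 higher and 320 lower from d4 to XEN. In the averages that pseudocount gave 61 higher at d1, 1 lower at d2, 508 higher and 75 lower at d4, and 159 higher and 303 lower in XEN, and 0.006 RPM gave 10 lower at d2. The median change at d4 was 0.33 with 0.15 RPM, 0.49 with 0.006 RPM and 0.48 with regions of at least 0.1 RPM. In XEN it was -0.13, -0.22 and -0.22 under those settings, and -0.26 with the lowest value subtracted. A fit on both groups alone called 72 higher at d1.

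The SOX17 gap at d4 was 0.91 with 0.006 RPM and 0.55 with 0.15 RPM, and in XEN 0.068 with 0.15 RPM. Within closed regions it was 1.19 at d2, 1.02 at d4 and 0.28 in XEN, within moderate regions 0.86 at d4 and 0.27 in XEN, and within accessible regions 1.19 at d4. The gap between closed and accessible regions was 0.86 at d2 and 1.00 at d4 with 0.006 RPM, and 0.37 at d2, 0.61 at d4 and 0.96 in XEN with 0.15 RPM. The gap between decreased and unchanged GATA6 binding on Oct4 knockdown was -0.46 at d4 and -0.49 in XEN with 0.006 RPM, and -0.31 and -0.29 with 0.15 RPM. For increased binding it was 0.74 in XEN with 0.006 RPM, and 0.31 at d4 and 0.45 in XEN with 0.15 RPM.

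Restricting matches to the upper part of the scores of all regions left GATA6 matches in 54.7% of the regions, OCT:SOX in 62.9%, SOX17 in 51.3% and ESRRB in 33.0%, by construction, and put 62.5%, 35.5% and 35.5% of the GATA6, OCT:SOX and SOX17 matches within 100 bases. Within 50 bases lay 38.7% of GATA6, 20.6% of OCT:SOX, 20.9% of SOX17 and 10.2% of ESRRB matches.

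Leaving out each library in turn gave 0 to 1 higher at 16 h, 23 to 455 higher at d1, 911 to 1316 higher and 2 to 11 lower at d2, 324 to 691 higher and 54 to 120 lower at d4, 30 to 303 lower from d2 to d4, and 2 to 11 higher and 164 to 282 lower from d4 to XEN. The 5 falls at d2 became 11 without 8 h library A, 2 without 8 h library B and 3 without d2 library C, and the 16 h rise appeared without 16 h library A. Where a group kept 1 library, that library was taken to vary as the other groups do.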

Other observations

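Several genes were nearest to many Early&Constant regions bound by PTF, a count chosen for description after the values were seen. Of 2410 nearest genes, 1835 had 1 such region and 28 had 5 or more. Lamc1, a laminin chain gene, had 7 of its 25 GATA6 regions in the set, with a median of 0.465 RPM at d0, 1.03 at d2, 0.704 at d4 and 0.766 in XEN, so that unlike the whole set its regions were higher in XEN than at d0. Jarid2, the gene of a cofactor of Polycomb repressive complex PRC2, had 6 of 35, at 0.513 RPM at d0, 1.02 at d2, 0.418 at d4 and 0.189 in XEN. Regions near Rbpms (7 of 27), an RNA-binding protein gene, had a median of 0.660 RPM at d0 and 2.18 at d2.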
